A study of Mus musculus with 26 samples.

Results

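Goblet cell mucus and secretion genes were followed in mouse intestinal organoids given arachidonic acid or prostaglandin E2. The genes are Muc2, Fcgbp, Clca1, Zg16, Agr2, Tff3, Spink4 and Spdef. They were chosen by name, with earlier results of these data known. All 8 were found among the 55385 gene identifiers of both count tables and passed the filter on low counts in both. Organoids, small epithelial cultures grown in Matrigel from crypts of C57BL/6 mice, were kept in medium with EGF, Noggin, R-spondin, N-acetylcysteine, the Wnt pathway activator CHIR-99021, the kinase inhibitor Y-27632, B27 and N2, so every group carries these supplements. They received 25 µM arachidonic acid (AA), 50 nM prostaglandin E2 (PGE2) or vehicle. The 26 libraries fell into 8 groups: AA, PGE2 and vehicle at days 1 and 3, with n = 3 in each, and AA and vehicle at day 6, with n = 4 in each. No genotype or transgene is given. The treatment text names PGE2 whereas the design text names a dimethyl analogue of it. The labels leave unsaid which was added, and PGE2 stands for either. Whether replicates were separate cultures or mice is not stated, so p-values measure the spread between these libraries, which may be technical.

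Goblet cells are secretory cells of the gut epithelium that release the mucus covering it. Their granules hold the gel-forming mucin Muc2, which is folded and cross-linked in the endoplasmic reticulum, given dense O-linked sugars in the Golgi and unpacked into a net after release, together with smaller mucus proteins. The cells arise from crypt progenitors that escape Notch signalling and switch on Atoh1, and Spdef acts later in their maturation. AA is a polyunsaturated fatty acid that cells can turn into prostaglandins, PGE2 among them.

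The promoters of Muc2 and Fcgbp, major mucus proteins whose genes moved in opposite directions under AA at day 1, are shown because both carry 1 E-box of the letters CAGCTG, a form that Atoh1-type factors can bind. Each window runs 5′ to 3′ from 250 bases before to 50 bases after the gene start in the RefSeq promoter table (GRCm38.p6, chr7:141690090-141690389 and chr7:28070986-28071285, both on the plus strand), and the E-box is in capitals. It starts 112 bases before the Muc2 start and 208 bases before the Fcgbp start.
Muc2: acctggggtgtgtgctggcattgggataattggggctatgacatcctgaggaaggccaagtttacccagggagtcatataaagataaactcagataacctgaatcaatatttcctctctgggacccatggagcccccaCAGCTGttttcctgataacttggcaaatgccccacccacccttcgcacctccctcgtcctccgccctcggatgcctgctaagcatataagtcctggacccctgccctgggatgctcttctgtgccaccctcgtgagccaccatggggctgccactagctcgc
Fcgbp: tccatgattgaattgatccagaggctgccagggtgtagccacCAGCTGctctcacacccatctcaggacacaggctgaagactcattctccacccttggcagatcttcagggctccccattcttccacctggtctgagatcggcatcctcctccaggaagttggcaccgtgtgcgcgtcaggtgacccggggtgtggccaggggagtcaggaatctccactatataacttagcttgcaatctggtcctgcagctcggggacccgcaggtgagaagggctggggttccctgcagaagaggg

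CAGCTG, which reads the same on both strands, is held by 16.3% of the 32817 promoters in that table, so a match is common and is a description only. Promoters were matched for 4 of the 8 genes, the other matches being Agr2 and Spdef, and neither of those windows holds CAGCTG. The GATA letters AGATAA, searched on both strands and held by 11.2% of promoters, occur 2 times in the Muc2 window and in none of the other 3. TGACG, the core of a cAMP response element, is held by 20.8% of promoters and occurs 1 time each in the Fcgbp and Spdef windows. TATAAA, held by 13.6%, occurs only in the Muc2 window of these 4, and CCGGAT, held by 6.04%, in none of them.

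Libraries held 1.01e+07 to 1.46e+07 counted reads at days 1 and 3 and 1.61e+07 to 1.98e+07 at day 6. Ribosomal RNA of mitochondria made up 6.74% to 10.3% of the counts at days 1 and 3 but 0.003% to 0.266% at day 6, so day 6 and this difference in library content cannot be told apart. Levels are in CPM, the reads of a gene relative to all counted reads of its library, scaled within each table, and day 6 levels are therefore not tested against earlier ones. Markers of non-epithelial cells were low: summed over each list, fibroblast markers reached at most 1.30 CPM, immune markers 6.94 CPM and endothelial and neural markers 3.53 CPM in any library. Of the 6 immune markers, only Cd68 and Csf1r passed the filter at days 1 and 3. Cd68 rose at these low levels under both treatments at both times, by 0.78 under AA and 1.24 under PGE2 at day 3 (log2). Csf1r was called higher as well, by 1.78 and 2.99 at day 3. It passed the filter only through PGE2 libraries of that day, at 0.90 to 1.01 CPM, against at most 0.65 CPM in other libraries of days 1 and 3. Its calls are therefore a description only. The part of immune markers in the goblet results was not tested. At day 3, AA replicate 3 lay apart from the other AA libraries for Muc2, Fcgbp, Zg16, Tff3 and Spink4, and at day 6 vehicle replicate 4 lay at -37.9 on the first principal component, against -18.4 to -16.4 in the other vehicle libraries. Several AA changes against vehicle are also given without the library concerned. Most other results that use these libraries are given with all libraries only.

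The 8 genes spanned a wide range of reads. Fcgbp gave 4000 to 40291 reads per library and Tff3 982 to 7264, while Zg16 gave 26 to 913 and Spdef 68 to 350, so counting error weighs most on the last pair. Per kilobase of annotated exon, the level in vehicle organoids at day 1 was highest for Tff3, at 311 CPM, followed by Spink4 at 72.5 CPM, Fcgbp at 45.5 CPM and Agr2 at 32.6 CPM. Zg16, Spdef, Clca1 and Muc2 lay between 3.64 and 1.21 CPM per kilobase. The Muc2 locus (chr7:141690340-141754693, plus strand, GENCODE vM21, GRCm38) is tagged as fragmented in the annotation, with models too short for a gel-forming mucin, so its level per length is not comparable with the others, although its change between groups is. No exon of another gene in that annotation overlaps an exon of these 8. In these bulk libraries, fewer cells of a type and less RNA per cell cannot be told apart.

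Goblet genes rose with time in vehicle organoids. At day 3 against day 1, 6 of 8 were higher and 1 was lower (edgeR quasi-likelihood test, Benjamini-Hochberg adjusted p under 0.05 over all genes), while 19.8% of all 14850 genes tested were called higher and 20.5% lower. Spink4 rose most, by 1.56 ± 0.09 on the log2 scale (SE; adjusted p = 8.82e-12), with 102 ± 4.65 CPM at day 3 and 34.6 ± 2.49 CPM at day 1 (SD, n = 3 each). Muc2 rose by 0.96 ± 0.26, and Fcgbp, Clca1, Spdef and Agr2 rose by 0.66, 0.57, 0.57 and 0.36. Zg16 fell by 0.79 ± 0.24 (adjusted p = 0.0111). Without vehicle day 1 replicate 1 the Zg16 call was lost (adjusted p = 0.0564), and without vehicle day 3 replicate 2 the Muc2 call was lost (adjusted p = 0.0572). Tff3 changed by 0.15 ± 0.09, which did not pass (adjusted p = 0.208). All 11 Paneth markers tested also rose over this time, with summed levels of 2187 to 2512 CPM at day 3 and 719 to 853 CPM at day 1. Their part in the goblet result was not tested.

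PGE2 raised most of the goblet genes and AA split them. At day 1, AA raised 2 of 8 genes, close to the background of 19.5% of all genes called higher, and lowered 5 of 8, against 22.2% called lower. At day 3, AA raised 2 of 8 and lowered 3 of 8, against 21.2% called higher and 20.1% lower. At day 6, AA raised 5 of 8 and lowered 1 of 8, against 15.3% called higher and 15.5% lower. PGE2 raised 6 of 8 and lowered none at day 1, where 27% of all genes were called higher and 28.9% lower. At day 3 it raised 7 of 8 and lowered 1 of 8, against 28.9% called higher and 30.1% lower. The median log2 change over the 8 genes was -0.35 for AA at day 1, 0.02 at day 3 and 0.23 at day 6, and 0.52 for PGE2 at day 1 and 1.27 at day 3, while the median over all genes lay between -0.04 and -0.01 in these 5 comparisons.

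**Figure D1:**
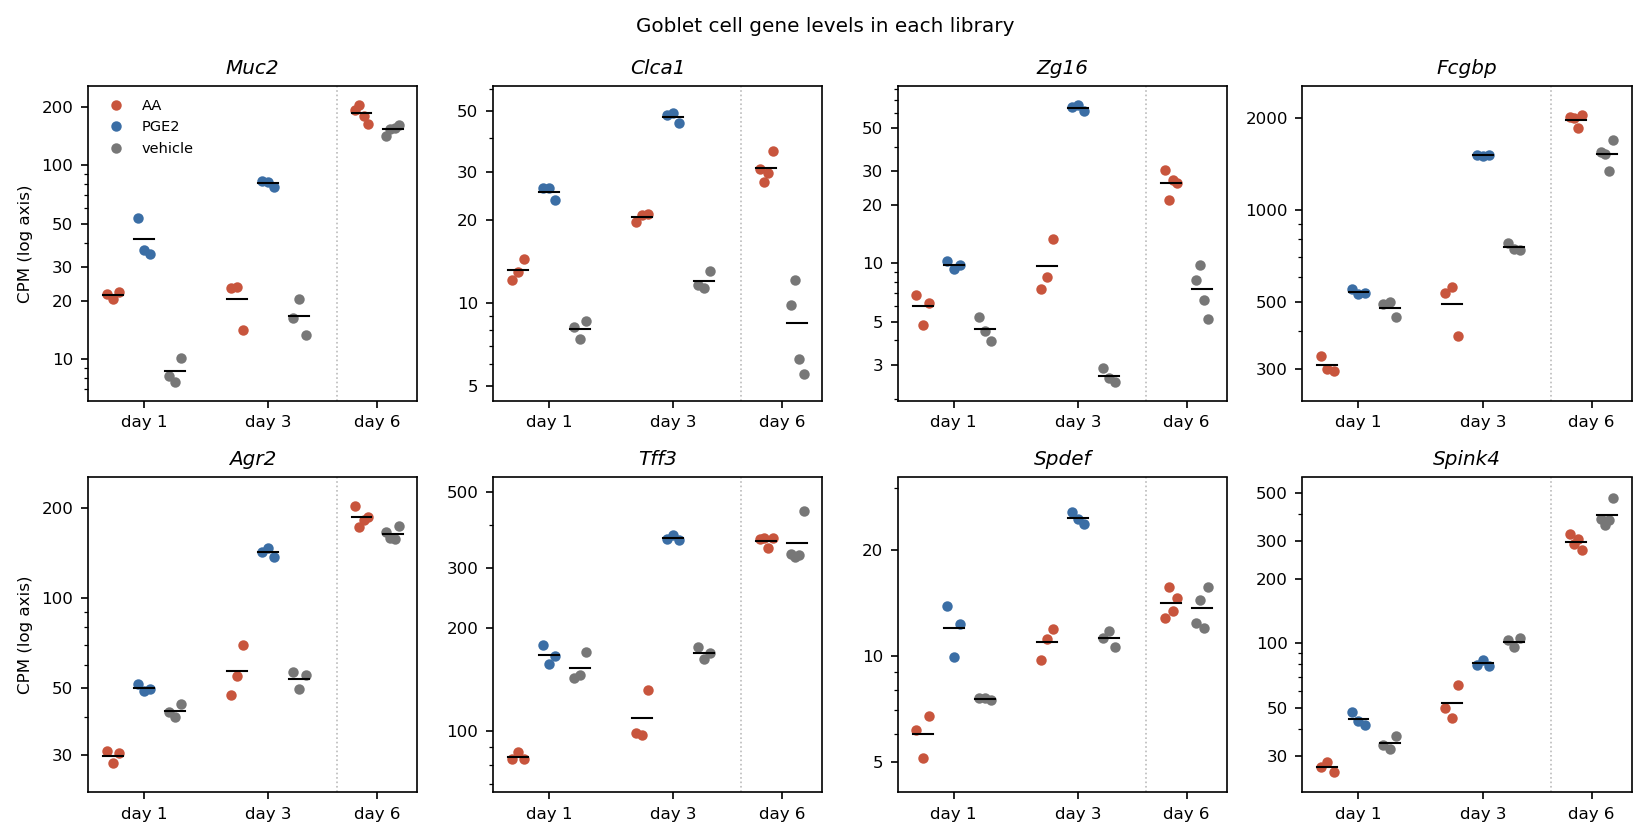
Level of each goblet gene in every library, in CPM on a log axis, at days 1, 3 and 6; points are libraries, bars are group means, and AA stands left of PGE2 and vehicle. Day 6, right of the dotted line, was scaled separately. PGE2 libraries at day 3 lie above AA and vehicle libraries for 7 genes, the exception being Spink4, where vehicle is highest.

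Muc2, the gel-forming mucin that makes up the mucus net, rose early under both treatments. At day 1 it stood at 21.7, 20.5 and 22.2 CPM in AA libraries, 53.8, 36.5 and 35.0 CPM in PGE2 libraries and 8.14, 7.61 and 10.2 CPM in vehicle libraries. The 3 groups did not overlap, with PGE2 highest. The log2 change was 1.31 ± 0.25 for AA (adjusted p = 0.000721) and 2.29 ± 0.23 for PGE2 (adjusted p = 1.12e-06). PGE2 replicate 1 was the highest of its group, and without it the PGE2 change was 2.05. At day 3 Muc2 stood at 23.4, 23.6 and 14.2 CPM in AA libraries, 82.6, 82.0 and 77.7 CPM in PGE2 libraries and 16.3, 20.4 and 13.4 CPM in vehicle libraries. AA and vehicle libraries overlapped at that time, and PGE2 libraries stood above both. PGE2 raised it by 2.27 ± 0.19 (adjusted p = 1.90e-07), whereas the AA change of 0.28 ± 0.23 did not pass (adjusted p = 0.367); its 95% interval ran from -0.22 to 0.77. Without AA replicate 3, the low library, the AA change was 0.50 (adjusted p = 0.0743). At day 6 AA libraries held 193, 206, 180 and 164 CPM and vehicle libraries 143, 155, 156 and 161 CPM. The lowest AA library was just above the highest vehicle library, and the change was 0.27 ± 0.07 (adjusted p = 0.0136).

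Fcgbp, a large secreted protein of the mucus that binds Muc2, behaved otherwise. At day 1 it had 332, 301 and 295 CPM in AA libraries, 551, 530 and 533 CPM in PGE2 libraries and 489, 499 and 444 CPM in vehicle libraries. All AA libraries lay below vehicle, and all PGE2 libraries lay slightly above. AA lowered it by 0.63 ± 0.10 on the log2 scale (fitted change -0.63, adjusted p = 6.07e-05), and the PGE2 change of 0.17 ± 0.10 did not pass (adjusted p = 0.144), although it did when AA libraries and day 3 were left out of the fit (0.20, adjusted p = 0.000664). At day 3 Fcgbp had 532, 560 and 384 CPM in AA libraries, 1519, 1508 and 1512 CPM in PGE2 libraries and 780, 746 and 737 CPM in vehicle libraries. The AA libraries again lay below vehicle, and the PGE2 libraries lay about a factor of 2 above it, close together. The log2 changes were -0.62 ± 0.10 for AA (adjusted p = 6.08e-05) and 1.00 ± 0.10 for PGE2 (adjusted p = 9.71e-08), and the AA change was -0.46 without AA replicate 3. At day 6 the direction under AA was the other way, with 2026, 1998, 1855 and 2044 CPM in AA libraries and 1545, 1523, 1345 and 1701 CPM in vehicle libraries. Every AA library was higher, by 0.37 ± 0.07 (adjusted p = 0.00242).

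Clca1, a secreted protease that acts on mucus, was the gene that rose in all 5 comparisons with vehicle. At day 1 it had 12.2, 13.0 and 14.5 CPM in AA libraries, 26.3, 26.3 and 23.7 CPM in PGE2 libraries and 8.21, 7.38 and 8.59 CPM in vehicle libraries. At day 3 it had 19.8, 20.8 and 21.1 CPM in AA libraries, 48.2, 49.4 and 45.4 CPM in PGE2 libraries and 11.7, 11.3 and 13.1 CPM in vehicle libraries. At both times the order was PGE2, AA, vehicle, with no overlap. The log2 changes under AA were 0.71 ± 0.10 at day 1 (adjusted p = 7.14e-07) and 0.77 ± 0.09 at day 3 (adjusted p = 2.18e-08). Those under PGE2 were 1.65 ± 0.09 (adjusted p = 5.92e-16) and 1.99 ± 0.08 (adjusted p = 2.13e-19). At day 6 AA libraries held 30.9, 27.7, 29.8 and 35.8 CPM and vehicle libraries 9.84, 12.1, 6.27 and 5.51 CPM, a change of 1.86 ± 0.19 (adjusted p = 2.90e-05). The vehicle libraries spread more widely here than the AA libraries, and without vehicle replicate 4 the change was 1.72.

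Zg16, a lectin-like mucus protein that binds Gram-positive bacteria, showed the largest single response of the 8. At day 3 it had 7.35, 8.47 and 13.4 CPM in AA libraries, 64.0, 66.0 and 61.0 CPM in PGE2 libraries and 2.88, 2.57 and 2.44 CPM in vehicle libraries. The groups did not overlap, and the vehicle level was the lowest of any group. The log2 change was 1.88 ± 0.21 for AA (adjusted p = 8.53e-08) and 4.58 ± 0.15 for PGE2 (adjusted p = 7.06e-18), a 23.9-fold difference. AA replicate 3 was high here, and the AA change was 1.57 without it. Day 1 values were 6.91, 4.82 and 6.26 CPM in AA libraries, 10.3, 9.39 and 9.79 CPM in PGE2 libraries and 5.29, 4.46 and 3.98 CPM in vehicle libraries. AA overlapped vehicle at day 1 and its change of 0.39 ± 0.19 did not pass (adjusted p = 0.115), although it did without AA replicate 2 (0.52, adjusted p = 0.0469) and when the groups compared were fitted alone (0.42, adjusted p = 0.0342). PGE2 raised Zg16 by 1.10 ± 0.18 at that time (adjusted p = 1.55e-05). At day 6 AA libraries had 30.3, 21.2, 26.9 and 26.1 CPM and vehicle libraries 8.18, 9.77, 6.49 and 5.19 CPM, a change of 1.80 ± 0.16 (adjusted p = 1.26e-05).

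Agr2, a disulfide isomerase of the endoplasmic reticulum needed for Muc2 production in mice, fell under AA at day 1 alone. Its day 1 levels were 30.8, 28.1 and 30.4 CPM in AA libraries, 51.7, 49.1 and 49.9 CPM in PGE2 libraries and 41.6, 40.2 and 44.5 CPM in vehicle libraries. The 3 groups did not overlap. The log2 change was -0.50 ± 0.10 for AA (adjusted p = 0.000508) and 0.26 ± 0.10 for PGE2 (adjusted p = 0.0315). The PGE2 call is fragile: without PGE2 replicate 1 or 3 the adjusted p was 0.0983 or 0.065, without vehicle replicate 1 or 2 it was 0.0832 or 0.105, and with total counts as the only scaling it was 0.0818. At day 3 AA libraries held 47.4, 55.1 and 69.6 CPM, PGE2 libraries 143, 147 and 138 CPM and vehicle libraries 56.6, 49.8 and 55.5 CPM. PGE2 raised Agr2 by 1.40 ± 0.09 (adjusted p = 2.25e-11), and AA libraries lay on both sides of vehicle. The AA change of 0.09 ± 0.09 (adjusted p = 0.496) turned to -0.08 without AA replicate 3 and passed, at 0.22 (adjusted p = 0.0232), without AA replicate 1. At day 6 Agr2 averaged 187 ± 12.3 CPM under AA and 165 ± 7.30 CPM under vehicle (SD, n = 4 each). The libraries overlapped, and the change of 0.18 ± 0.06 (adjusted p = 0.0389) missed the threshold when any of 6 of the 8 libraries was left out (adjusted p 0.0731 to 0.12).

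Tff3, a trefoil peptide that goblet cells release with mucus and that aids epithelial repair, fell under AA at the early times and rose under PGE2 at day 3. At day 1 it had 82.9, 86.9 and 83.0 CPM in AA libraries, 179, 157 and 166 CPM in PGE2 libraries and 144, 146 and 170 CPM in vehicle libraries. AA libraries lay well below vehicle, and PGE2 libraries overlapped it. The log2 change was -0.86 ± 0.09 for AA (adjusted p = 6.90e-07) and 0.13 ± 0.09 for PGE2 (adjusted p = 0.238), and the PGE2 change passed when the groups compared were fitted alone (0.15, adjusted p = 0.0249). At day 3 Tff3 had 98.6, 97.9 and 132 CPM in AA libraries, 364, 374 and 363 CPM in PGE2 libraries and 177, 163 and 170 CPM in vehicle libraries. The groups were separate, with changes of -0.63 ± 0.09 for AA (adjusted p = 2.46e-05; -0.78 without AA replicate 3) and 1.11 ± 0.09 for PGE2 (adjusted p = 4.98e-09). At day 6 AA libraries had 365, 366, 342 and 366 CPM and vehicle libraries 329, 322, 328 and 440 CPM. The AA change of 0.02 ± 0.09 did not pass (adjusted p = 0.889), but without the high vehicle library, replicate 4, it was 0.14 and passed (adjusted p = 0.0183).

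Spink4, a Kazal-type protease inhibitor of goblet granules, was the exception among the 8 under PGE2 at day 3. Its day 1 levels were 26.7, 28.2 and 25.5 CPM in AA libraries, 48.0, 43.5 and 41.7 CPM in PGE2 libraries and 33.9, 32.5 and 37.3 CPM in vehicle libraries. AA lay below vehicle and PGE2 above, with log2 changes of -0.37 ± 0.10 (adjusted p = 0.00455) and 0.36 ± 0.09 (adjusted p = 0.00225). At day 3 it had 50.1, 45.3 and 64.0 CPM in AA libraries, 79.8, 83.7 and 78.9 CPM in PGE2 libraries and 104, 96.7 and 106 CPM in vehicle libraries. Both treatments now lay below vehicle, with log2 changes of -0.93 ± 0.08 for AA (adjusted p = 4.61e-09; -1.08 without AA replicate 3) and -0.34 ± 0.08 for PGE2 (adjusted p = 0.00091). At day 6 AA libraries had 321, 291, 306 and 271 CPM and vehicle libraries 377, 356, 372 and 471 CPM. Every AA library was lower, with a change of -0.41 ± 0.09 (adjusted p = 0.00452; -0.31 without vehicle replicate 4).

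Spdef, the ETS transcription factor of goblet cell maturation, rose under PGE2 at both times. At day 1 it had 6.15, 5.12 and 6.76 CPM in AA libraries, 13.8, 9.91 and 12.3 CPM in PGE2 libraries and 7.57, 7.61 and 7.50 CPM in vehicle libraries. At day 3 it had 9.75, 11.2 and 11.9 CPM in AA libraries, 25.6, 24.4 and 23.7 CPM in PGE2 libraries and 11.3, 11.8 and 10.6 CPM in vehicle libraries. PGE2 libraries stood above the rest at both times, with log2 changes of 0.68 ± 0.12 (adjusted p = 1.21e-05) and 1.13 ± 0.10 (adjusted p = 3.31e-11). AA lay below vehicle at day 1, with a change of -0.33 ± 0.13 that only just passed (adjusted p = 0.0441) and was lost with most other settings, DESeq2 among them (adjusted p = 0.0983). The AA changes at day 3 (-0.04 ± 0.11, adjusted p = 0.813) and day 6 (0.05 ± 0.10, adjusted p = 0.718) did not pass. The 95% interval at day 6 ran from -0.17 to 0.28. Spdef averaged 14.1 ± 1.29 CPM under AA and 13.6 ± 1.74 CPM under vehicle at that time (SD, n = 4 each).

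**Figure D2:**
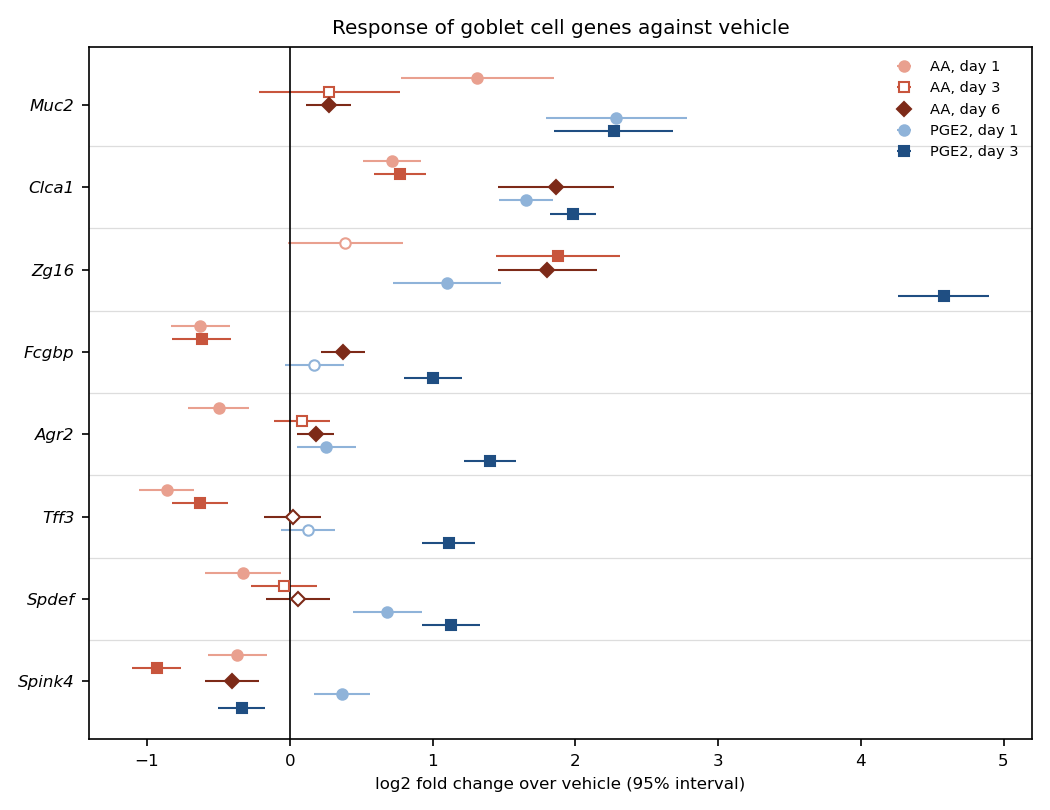
Log2 fold change of each goblet gene against vehicle, with its 95% interval, for AA at days 1, 3 and 6 and PGE2 at days 1 and 3; filled markers passed the adjusted threshold of 0.05 and open markers did not. Zg16 under PGE2 at day 3, at 4.58, lies farthest from 0, and Spink4 lies below 0 under AA at each time.

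AA and PGE2 were compared directly, at doses that differ (25 µM and 50 nM). All 8 genes were lower under AA than under PGE2 at both times, with every AA library below every PGE2 library. How many of all genes separate in this way was not counted, so the lack of overlap is a description only. Over all genes, 16.5% were called lower and 11.3% higher at day 1, and 20.3% lower and 18.1% higher at day 3. At day 1 the differences were of like size across genes, between -0.71 ± 0.17 for Zg16 (adjusted p = 0.00253) and -1.01 ± 0.12 for Spdef (adjusted p = 1.10e-07). At day 3 they ran more widely, between -0.60 ± 0.08 for Spink4 (adjusted p = 5.62e-06) and -2.70 ± 0.12 for Zg16 (adjusted p = 1.59e-14). Muc2 stood at -1.99 ± 0.19, Tff3 at -1.74 ± 0.09 and Fcgbp at -1.62 ± 0.10 between them. These comparisons share the AA and PGE2 libraries with those against vehicle.

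**Figure D3:**
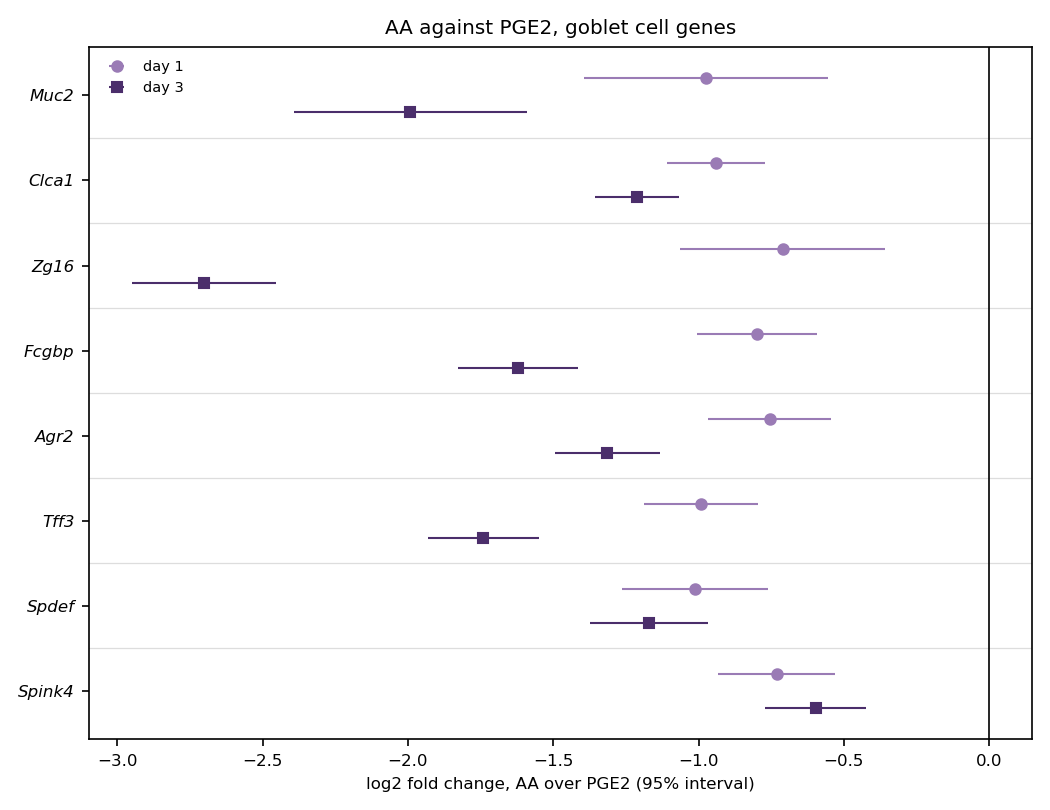
Log2 fold change of AA over PGE2 for each goblet gene at days 1 and 3, with its 95% interval. All 16 values lie below 0, from -0.60 to -2.70, and the day 3 value is farther from 0 than the day 1 value for every gene but Spink4.

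Whether a response changed with time was tested as a difference of responses. For PGE2, 5 of 8 genes responded more strongly in the upward direction at day 3 than at day 1 and 1 less, against 12.6% of all genes called higher and 11.6% lower. Zg16 differed most, by 3.48 ± 0.27 (adjusted p = 7.27e-10), followed by Agr2 at 1.14, Tff3 at 0.98, Fcgbp at 0.83 and Spdef at 0.45 (adjusted p = 0.0355, a call lost with DESeq2 at 0.0916), while Spink4 differed by -0.70. For AA between days 3 and 1, 2 of 8 genes were called higher and 1 lower, against 10% and 7.95% of all genes. These were Zg16 (1.49 ± 0.29, adjusted p = 0.000814), Agr2 (0.59) and Spink4 (-0.57). The fall of the Muc2 response, -1.04 ± 0.34, just missed the threshold (adjusted p = 0.0521) and passed with DESeq2 (adjusted p = 0.00986). For AA between days 6 and 3, fitted over all 26 libraries, 4 of 8 were called higher and none lower, against 8.78% and 10.4% of all 15504 genes tested. Clca1 differed by 1.07 ± 0.22 (adjusted p = 0.00136), Fcgbp by 0.98 ± 0.12 (adjusted p = 3.54e-07), Tff3 by 0.64 and Spink4 by 0.51. For Muc2 (-0.02 ± 0.22) and Zg16 (-0.10 ± 0.32) the difference between those responses did not pass.

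The divergence of Muc2 and Fcgbp is visible inside single libraries, where scaling plays no part. Muc2 gave 6.54 to 7.52 reads per 100 Fcgbp reads in AA libraries at day 1, 6.58 to 9.75 in PGE2 libraries and 1.53 to 2.29 in vehicle libraries. At day 3 the ratios were 3.70 to 4.40 for AA, 5.14 to 5.44 for PGE2 and 1.82 to 2.74 for vehicle. Treated libraries lay above vehicle at both times, AA included, where Fcgbp itself was lower. At day 6 the ratio was 8.01 to 10.3 for AA and 9.22 to 11.6 for vehicle, and the groups overlapped. This ratio was chosen after the values were seen and carries no test.

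**Figure D4:**
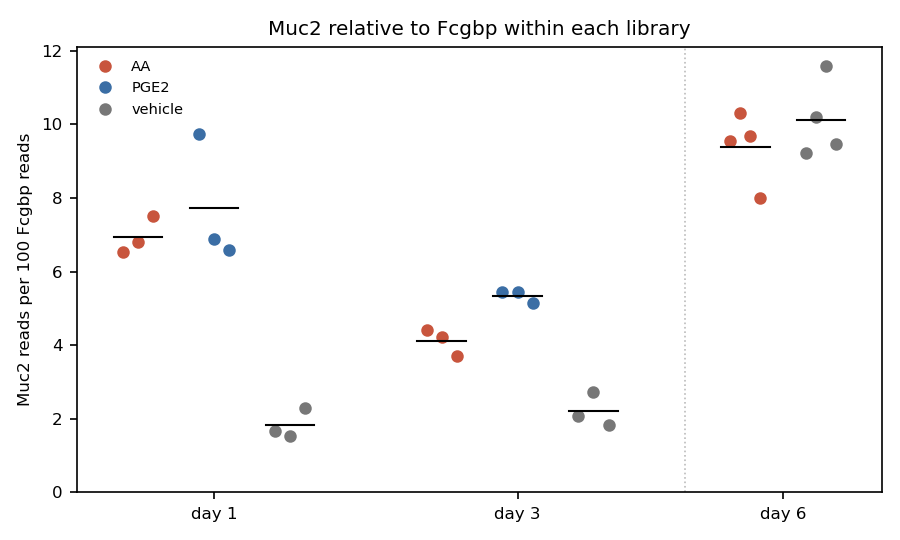
Muc2 reads per 100 Fcgbp reads in each library at days 1, 3 and 6; bars are group means. AA and PGE2 libraries lie between 3.70 and 9.75 at days 1 and 3, above all vehicle libraries of those days, which lie between 1.53 and 2.74.

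A list of 12 secretory fate genes holds factors of goblet and secretory cells, the Notch ligands Dll1 and Dll4, and Hes1, a Notch effector that represses Atoh1, so its members do not all act in 1 direction. AA lowered 10 and raised 2 at day 1, where 22.2% of all genes were called lower, and lowered 9 and raised 1 at day 3, against 20.1% lower. At day 6 it lowered 2 and raised none, a share of 16.7% that is near the 15.5% of all genes. PGE2 lowered 4 and raised 3 at day 1 and lowered 4 and raised 2 at day 3, where 28.9% and 30.1% of all genes were lower, so the 33.3% lower on each day is near the background. Hes1 was among the genes that fell, by 0.38 and 0.40 under AA and by 0.45 and 0.35 under PGE2 at days 1 and 3. Dll1, a Notch ligand of secretory progenitors, fell under AA by 1.02 at day 1 and 0.82 at day 3 and under PGE2 by 1.76 and 0.93. Bhlha15 (Mist1), a factor of secretory cell architecture, fell by 1.39 and 1.29 under AA at these days. Under PGE2 its log2 changes were -1.18 at day 1 and -1.12 at day 3. Klf4, needed for goblet cell differentiation in mouse colon, rose by 0.71 under AA at day 3, by 0.75 under PGE2 at day 1 and by 1.00 under PGE2 at day 3. Atoh1, the switch to the secretory lineage, averaged 13.8 ± 1.06 CPM under PGE2 and 7.96 ± 0.74 CPM under vehicle at day 3 (SD, n = 3 each), a rise of 0.80 ± 0.13 (adjusted p = 4.73e-06). At day 1 Atoh1 averaged 3.83 ± 0.38 CPM under AA, 8.57 ± 1.88 CPM under PGE2 and 6.59 ± 0.42 CPM under vehicle, so its mean was highest under PGE2 and lowest under AA. PGE2 libraries, at 6.44 to 9.99 CPM, overlapped vehicle libraries, at 6.29 to 7.07 CPM. The PGE2 rise was 0.38 ± 0.15 (adjusted p = 0.0273).

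Of 19 other goblet markers tested at days 1 and 3, PGE2 raised 15 and lowered 4 at day 1 and raised 13 and lowered 3 at day 3. AA raised 6 and lowered 3 at day 1, raised 4 and lowered 4 at day 3, and raised 9 and lowered 2 of 20 at day 6. The PGE2 shares higher, 78.9% and 68.4%, compare with 27% and 28.9% of all genes, and the AA share at day 6, 45%, with 15.3%. At day 3 the AA shares, 21.1% each way, were near the 21.2% higher and 20.1% lower of all genes. Sytl2, a granule-docking protein, averaged 43.9 ± 2.26 CPM under AA, 123 ± 3.61 CPM under PGE2 and 21.4 ± 1.08 CPM under vehicle at day 1 (SD, n = 3 each). Tff1, a trefoil peptide better known from the stomach, averaged 2.83 ± 0.59 CPM under AA, 32.6 ± 1.13 CPM under PGE2 and 0.47 ± 0.27 CPM under vehicle at day 3. Clca3b, a relative of Clca1, went the other way at day 3, with 264 ± 12.6 CPM under AA, 158 ± 14.7 CPM under PGE2 and 826 ± 44.3 CPM under vehicle. Ang4, a secreted antimicrobial ribonuclease made by goblet and Paneth cells, was also lower under both treatments. Its fitted log2 changes were -1.31 at day 3 and -0.97 at day 6 under AA. Under PGE2 they were -0.66 at day 1 and -2.10 at day 3.

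Few other mucins were tested. AA raised 1 of 6 and lowered none at day 1, raised 2 of 6 and lowered none at day 3, and raised 3 of 5 and lowered 1 at day 6. PGE2 raised 2 of 6 at day 1 and 5 of 6 at day 3 and lowered none. The AA share higher at day 1, 16.7%, and the PGE2 share at day 1, 33.3%, were near the 19.5% and 27% of all genes. The 60% under AA at day 6 compares with 15.3%. The 83.3% under PGE2 at day 3, where 28.9% of all genes were higher, counts Muc5ac and Muc6. Both passed the filter only through PGE2 libraries of that day. Their calls, and the shares over these 6 mucins, are therefore a description only. Muc3, a membrane mucin also made by enterocytes, averaged 67.0 ± 17.0 CPM under AA, 182 ± 12.1 CPM under PGE2 and 16.7 ± 1.41 CPM under vehicle at day 3. Muc5ac, the gel-forming mucin of stomach and airway, had 0.82 to 1.52 CPM in PGE2 libraries at day 3 and 0 reads in every vehicle library, a count that allows up to 3 reads per library, so no fold is given.

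Enzymes that build O-linked mucin sugars rose more often than they fell in each comparison except AA at day 1, where the counts were equal. AA raised 7 and lowered 7 of 21 at day 1, raised 9 and lowered 3 of 21 at day 3, and raised 12 and lowered 1 of 20 at day 6. PGE2 raised 10 and lowered 5 of 21 at day 1 and raised 15 and lowered 2 of 21 at day 3. The shares higher were 33.3%, 42.9% and 60% under AA at days 1, 3 and 6, against 19.5%, 21.2% and 15.3% of all genes, and 47.6% and 71.4% under PGE2 at days 1 and 3, against 27% and 28.9%. Gcnt1, which branches core O-glycans, averaged 27.8 ± 1.73 CPM under AA, 59.2 ± 2.48 CPM under PGE2 and 7.25 ± 0.89 CPM under vehicle at day 1. Gcnt3, the mucin-type branching enzyme, averaged 207 ± 8.09 CPM under AA, 330 ± 0.96 CPM under PGE2 and 115 ± 11.3 CPM under vehicle at day 3. St6galnac2, a sialyltransferase, averaged 44.2 ± 3.63 CPM under AA and 63.2 ± 6.83 CPM under vehicle at day 6 and fell by 0.52.

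Of 27 protein folding and exocytosis genes tested, AA raised 3 and lowered 8 at day 1, raised 4 and lowered 8 at day 3, and raised 3 and lowered 1 at day 6. PGE2 raised 6 and lowered 9 at day 1 and raised 6 and lowered 11 at day 3. The shares lower under AA were 29.6%, 29.6% and 3.7% at days 1, 3 and 6, against 22.2%, 20.1% and 15.5% of all genes. Under PGE2 they were 33.3% and 40.7% at days 1 and 3, against 28.9% and 30.1%, and the share higher was 22.2% on both days, against 27% and 28.9%. Nlrp6, an inflammasome sensor linked to mucin granule release in mouse colon, averaged 113 ± 1.02 CPM under AA, 46.9 ± 1.33 CPM under PGE2 and 217 ± 12.6 CPM under vehicle at day 1. Qsox1, an oxidase that forms disulfide bonds in the secretory route, averaged 148 ± 5.38 CPM under AA, 219 ± 2.13 CPM under PGE2 and 104 ± 6.74 CPM under vehicle at day 1. Ern2 (Ire1b), the stress sensor of goblet cells, rose under PGE2 at day 3, with 35.9 ± 0.74 CPM against 16.1 ± 1.89 CPM under vehicle (log2 change 1.16 ± 0.08).

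**Figure D5:**
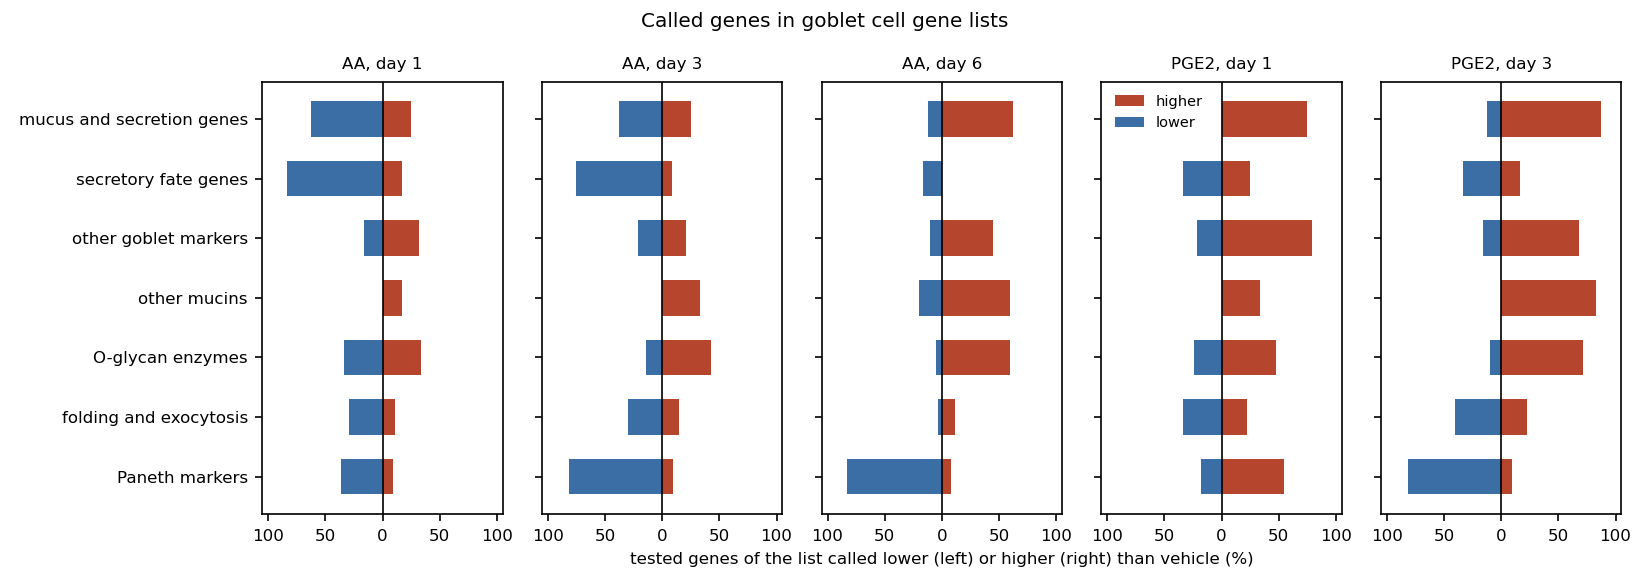
Share of tested genes of each list called higher (right of 0) or lower (left of 0) than vehicle, in percent, in the 5 comparisons with vehicle. Secretory fate genes lie mostly to the left under AA at days 1 and 3 (10 and 9 of 12 lower), and the mucus and secretion genes mostly to the right under PGE2 (6 and 7 of 8 higher).

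Markers of other epithelial cell types were called as well, and not in the same direction at each time. Beside their counts stand the shares of all genes called higher and lower. Under AA these were 19.5% and 22.2% at day 1, 21.2% and 20.1% at day 3, and 15.3% and 15.5% at day 6. Under PGE2 they were 27% and 28.9% at day 1 and 28.9% and 30.1% at day 3. At day 1, Paneth markers summed to 471 to 518 CPM in AA libraries, 698 to 817 CPM in PGE2 libraries and 719 to 853 CPM in vehicle libraries. AA raised 1 and lowered 4 of the 11 tested, and PGE2 raised 6 and lowered 2. At day 3 they summed to 776 to 984 CPM in AA libraries, 799 to 850 CPM in PGE2 libraries and 2187 to 2512 CPM in vehicle libraries, with 9 of 11 lower under each treatment. At day 6 they summed to 2076 to 2650 CPM under AA and 4774 to 5880 CPM under vehicle, with 10 of 12 lower. No Paneth marker was at 0 in a whole group.

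Of 14 enterocyte markers, AA raised 8 and lowered 1 at day 1, raised 12 and lowered none at day 3 and raised 10 and lowered 1 at day 6. PGE2 raised 5 and lowered 7 at day 1 and raised 11 and lowered 2 at day 3. The day 1 shares under PGE2, 35.7% higher and 50% lower, compare with 27% and 28.9% of all genes. Of 11 enteroendocrine markers, AA raised 6 and lowered 2 at day 1 and lowered 9 at day 3, and it lowered 8 of 12 at day 6. PGE2 raised 7 and lowered 2 at day 1 and lowered 10 at day 3. The difference of responses, day 3 minus day 1, was tested for each gene. For AA, 11 enterocyte markers were called higher and 0 lower, against 10% and 7.95% of all genes. Of the enteroendocrine markers 0 were higher and 7 lower, and of the Paneth markers 0 and 9. For PGE2 the counts were 13 higher and 0 lower for enterocyte markers, against 12.6% and 11.6% of all genes. They were 1 higher and 8 lower for enteroendocrine markers and 0 and 10 for Paneth markers.

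Stem cell markers were lower at both early times. AA lowered 6 of 7 at days 1 and 3, PGE2 lowered 6 of 7 at day 1 and all 7 at day 3, and AA lowered 5 and raised 1, Lgr5, at day 6. Their summed level was 1079 to 1124 CPM in AA libraries, 721 to 737 CPM in PGE2 libraries and 1807 to 1860 CPM in vehicle libraries at day 1. At day 3 it was 1261 to 1336 CPM in AA libraries, 957 to 1026 CPM in PGE2 libraries and 3195 to 3235 CPM in vehicle libraries. Lgr5, the receptor that marks crypt base stem cells, fell by 1.77 under AA and 3.11 under PGE2 at day 3. Of 4 tuft cell markers tested, AA raised 2 at day 1, raised 1 and lowered 1 at day 3 and lowered 3 at day 6. PGE2 raised 3 of them at day 1 and raised 2 and lowered 1 at day 3. The AA shares at day 3, 25% each way, were near the 21.2% higher and 20.1% lower of all genes. Tuft markers summed to 9.61 to 10.6 CPM in AA libraries, 26.6 to 27.1 CPM in PGE2 libraries and 5.93 to 7.50 CPM in vehicle libraries at day 3, most of it in PGE2 libraries from Avil, an actin-binding protein, at 20.7 to 21.4 CPM.

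Spink4 and Ang4 fell beside the Paneth markers under AA at days 3 and 6 and under PGE2 at day 3. Spink4 and Ang4 parted under PGE2 at day 1, where Ang4 changed by -0.66 and Spink4 by 0.36 (log2). Under PGE2 at day 3, 7 goblet genes rose beside the enterocyte markers and with lower stem cell markers. At day 1 under PGE2, 6 goblet genes rose beside lower stem cell markers. Enteroendocrine markers were then mixed, with 7 called higher and 2 lower. The 2 that fell were Neurog3 and Neurod1, with log2 changes of -2.87 and -1.31. Paneth markers were mixed as well, with 6 called higher and 2 lower, and their summed levels overlapped those of vehicle. The part of these cell types in the goblet results was not tested.

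By the pattern of log2 CPM over the 18 libraries of days 1 and 3, the genes most like each goblet gene were sought among 10803 others. The points share libraries and treatments, so the correlations are a description. Muc2 was most like Fmnl2 (Pearson r = 0.982), Mast4 (0.972) and the nuclear noncoding RNA Malat1 (0.971), with r of 0.563, 0.682 and 0.478 over the 8 libraries of day 6. Malat1 stood at 3327 to 3480 CPM in AA libraries, 4842 to 5139 CPM in PGE2 libraries and 1457 to 1708 CPM in vehicle libraries at day 1, the same order as Muc2, and its part in the Muc2 result was not tested. Clca1 was most like Slc26a2, a sulfate transporter (0.987), then Sgsm3 and Ggh, with 0.955, 0.478 and 0.663 at day 6. Zg16 was most like Ccnd2 (0.978), Ahcyl2 (0.978) and Enpp3, with 0.853, 0.968 and 0.868 at day 6. Fcgbp was most like Galnt7, an enzyme of mucin-type O-glycosylation (0.958), then Tecpr1 and Cpm, with 0.623, 0.45 and -0.652 at day 6. Agr2 and Spdef shared Fam83e among their nearest (0.974 and 0.951), with r of -0.23 and 0.404 at day 6. Noxa1 and Btg2 stood beside Agr2 (0.587 and -0.326 at day 6). Sytl1 and Ano7 stood beside Spdef (0.578 and 0.743 at day 6). Tff3 was near Fabp5 (0.954), Atoh1 (0.93) and Degs1, with 0.0853, 0.343 and -0.126 at day 6. Spink4 was near Clps, pancreatic colipase (0.961), Mcam and Ccl9, with 0.94, -0.489 and -0.554 at day 6.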

How the data were processed

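The members and gene lists were chosen with earlier results of these data known. The authors deposited whole-number counts of reads per gene, with days 1 and 3 in one table and day 6 in another; 0 columns were left unmatched to a sample. The tools named, per the submitters' processing notes, are STAR, cutadapt, limma 3.46 and DESeq2, without roles, and the build is GRCh38.p6, a human build, whereas the gene identifiers are mouse Ensembl ones. Neither the counting program nor its strand setting is given in the sources used; the library kit was directional, per the labels' protocols. Of 55385 identifiers, 55144 (99.56%) matched GENCODE vM21 or a gene name table, which gave symbols and positions. Where a listed symbol had several identifiers (St6galnac2), the first was used.

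The test was edgeR 4.0.16 under R 4.3.3 (filterByExpr, TMM scaling, quasi-likelihood test with robust spread), in 1 fit over the 18 libraries of days 1 and 3 (14850 genes, 6 groups, 12 residual degrees of freedom) and 1 over the 8 of day 6 (14663 genes, 6 residual degrees of freedom); a joint fit of 26 libraries (15504 genes) gave the day 6 minus day 3 response. P-values of the 11 comparisons were adjusted by Benjamini-Hochberg over all genes, with a threshold of 0.05, and "rose" or "fell" means past it. SE is the log2 change divided by the root of its F. CPM are TMM-scaled, and group values are means ± SD. The procedure was tested on simulated data. The limit that a count of 0 allows covers counting error only; 95% intervals of log2 changes come from the fit and include the spread between libraries.

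All 8 members were named, with up to 4 genes of smallest p from each other list per comparison and the 3 genes most like each member (log2 CPM, prior count 2, mean log2 CPM at least 1). Values of such genes in further comparisons were added after their values were seen. Alternatives were other scalings (RLE, total counts), other filters on low counts, DESeq2 1.42.0, leaving out ribosomal and mitochondrial genes, fits of the contrasted groups alone, a replicate block, and leaving out each library. Same-numbered libraries did not deviate together (25 pairs, r from -0.0831 to 0.137, 3 of them over 0.1), so no block was used. Replicate pairs differed by more than sampling noise (chi-square per degree of freedom 1.21 to 22.7 over 30 pairs). That check cannot tell separate cultures from repeated libraries of the same RNA. Each library was counted as 1 replicate.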

Additional observations from a re-analysis of the deposited data

Results flagged for a closer look

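At day 6, 2 Tff3 values stood outside their groups of 4 libraries. AA replicate 3 was the lowest AA library at 342.1 CPM, with the gap to its neighbour making up 0.9748 of the group's range, and vehicle replicate 4 was the highest vehicle library at 440.4 CPM, with a gap share of 0.9459. Both shares exceed Dixon's critical value for 4 samples, which chance passes in about 1 in 20 of the 16 groups tested. The AA group's whole range was small, 342 to 366 CPM.

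In 13 cases a response differed between times by a test of the difference itself. The AA response at day 3 minus day 1 differed for Zg16 (1.49 on the log2 scale), Agr2 (0.59) and Spink4 (-0.57). The PGE2 response at day 3 minus day 1 differed for Zg16 (3.48), Agr2 (1.14), Tff3 (0.98), Fcgbp (0.83), Spdef (0.45) and Spink4 (-0.70). The AA response at day 6 minus day 3 differed for Clca1 (1.07), Fcgbp (0.98), Tff3 (0.64) and Spink4 (0.51).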

How the results depend on the processing

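Over the 88 results for single goblet genes, 1311 of 1400 alternative values kept their direction and side of the threshold, 56 lost or gained a call and 33 turned direction, of which 27 came from leaving out 1 library. Every turned value belonged to a change that had not passed. The number of genes called for the AA response at day 6 minus day 3 was 2969 and fell to 1812 when the groups of the contrast alone were fitted; the cause was not tested. The Spdef fall under AA at day 1, the Agr2 rises under PGE2 at day 1 and AA at day 6 and the Spdef difference of PGE2 responses were the calls lost most often. With a replicate block, 86 of the 88 gene results kept their label: the Muc2 difference of AA responses at day 3 minus day 1 passed (-1.04, adjusted p = 0.0451), and that of PGE2 responses turned to 0.0022.

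With total counts alone, 3 unpassed differences of responses turned: Fcgbp for AA at day 3 minus day 1 (-0.042), Muc2 for PGE2 at day 3 minus day 1 (0.035) and Muc2 for AA at day 6 minus day 3 (0.047). The Fcgbp value was also -0.019 with a stricter filter and -0.011 with the contrasted groups alone. Total counts alone also moved the split of all called genes: 2459 higher and 3903 lower for AA at day 3 (3143 and 2986 with TMM), 2570 and 1746 for AA against PGE2 at day 1 (1671 and 2448), 3726 and 2042 for vehicle (2943 and 3039), 986 and 1410 for the AA response at day 3 minus day 1 (1487 and 1181), 2221 and 1277 for the PGE2 response (1876 and 1716), and 1747 and 1020 for the AA response at day 6 minus day 3 (1362 and 1607).

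Leaving out 1 library at a time, these changes, none past the threshold with all libraries, took either direction. For AA against vehicle, the Agr2 change at day 3 ran from -0.080 to 0.217 and that of Spdef from -0.106 to 0.046. At day 6 the Tff3 change ran from -0.024 to 0.142 and that of Spdef from -0.0024 to 0.125. For the AA response at day 3 minus day 1, Fcgbp ran from -0.090 to 0.143, and for the PGE2 response Muc2 ran from -0.162 to 0.222. For the AA response at day 6 minus day 3, Muc2 ran from -0.222 to 0.106, Zg16 from -0.285 to 0.234, Agr2 from -0.050 to 0.261 and Spdef from -0.0069 to 0.163. Depth limits Zg16 and Spdef most, with as few as 26 and 68 reads in a library.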
